A study of Mesocricetus auratus with 24 samples.

Results

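The windows described here are the 269 of 22842 measured 1 kb windows of the Syrian hamster genome whose CpG methylation was high in a culture both when it was senescent and after it had bypassed senescence. A window was measured when each of the 24 libraries listed at least 3 CpG positions in it, and its level is the percentage of methylated reads among all reads over those positions. A window was chosen when its mean level in the senescent libraries (SEN) and its mean in the bypass libraries (SENbp) each lay at least 20 percentage points above the highest of the 4 other group means, with SEN and SENbp less than 15 points apart. The distance from the lower of the SEN and SENbp means to the highest other group mean is called the margin. Because these values chose the windows, the difference of SEN and SENbp from the other groups is a description and is given with no test.

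Methylation of cytosine at CpG sites is laid down by de novo methyltransferases and copied at each DNA replication by maintenance methyltransferase, so a pattern can be passed on through cell divisions. Dense methylation of CpG-rich promoters is associated with silent genes, whereas methylation within gene bodies and between genes is the usual state of most mammalian DNA. Senescence is a lasting arrest of the cell cycle, which cultured rodent cells can enter after prolonged growth or DNA damage, and rare cells that escape it give rise to cultures of unlimited growth. Reduced representation bisulfite sequencing cuts DNA at CCGG sites and reads CpG-rich fragments after conversion of unmethylated cytosine.

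The data came from fetal cells in a cell transformation assay, in which cells form colonies, are exposed to a chemical and are scored for altered colony morphology, with 4 libraries in each of 6 groups. SENbp and SEN were 4 technical replicates each of a single culture, grown from a morphologically transformed (MT) colony treated with benzo[a]pyrene (abbreviated B[a]P, one of the polycyclic aromatic hydrocarbons, whose metabolites form DNA adducts) and sampled on day 94 after bypass and on day 48 in senescence. MTc and Nc were also cultures of single colonies treated with B[a]P, of transformed (MTc) and normal (Nc) morphology, grown for 19 to 25 days. B[a]P and DMSO were pools of about 60 colonies collected on day 9 after B[a]P at 5 µg/mL or after vehicle alone, 0.2% DMSO. The culture that gave SENbp and SEN was a single clone from an assay on pooled female and male fetuses and was typed male, whereas the other 16 libraries came from an assay on a single male fetus. The culture's origin, clone and time in culture therefore differ together from the other groups and cannot be told apart. No earlier sample of that culture was analysed here, so whether a window's methylation increased before day 48 cannot be read from these levels.

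The libraries listed 809562 to 1484688 CpG positions each, strands counted apart, with a total coverage of 30316233 to 67276906 reads summed over positions. No pair of replicates agreed within counting noise. Over all 22842 windows, the mean level was 34.4% in SENbp, 31.8% in SEN, 29.99% in MTc, 28.7% in Nc, 28.7% in B[a]P and 28.3% in DMSO. No gene names are given, because the deposited tables carry none and no annotation of their scaffolds was used here.

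Averaged over the 269 chosen windows, methylation was 74.6 ± 0.732% in SENbp and 71.5 ± 3.54% in SEN (SD over libraries, n = 4 each). The other groups averaged 37.7 ± 2.68% in MTc, 34.7 ± 5.10% in Nc, 32.4 ± 0.650% in B[a]P and 31.8 ± 2.59% in DMSO (SD, n = 4 each). The SENbp libraries were at 74.6, 74.6, 73.7 and 75.5%, and the SEN libraries at 70.4, 76.7, 68.9 and 69.9%. The 4 bypass libraries were thus almost level with each other, and SEN replicate 2 lay above the other 3 senescent libraries and above all 4 bypass libraries. Among the colonies, the MTc libraries were at 33.7, 39.3, 38.5 and 39.2%, and the Nc libraries at 33.2, 28.2, 37.5 and 39.7%. Among the pools, the B[a]P libraries were at 32.5, 31.5, 32.9 and 32.7%, and the DMSO libraries at 33.9, 28.4, 33.7 and 31.0%. No colony or pool library came near the culture libraries in this average, a separation that the choice of windows sets.

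**Figure D1:**
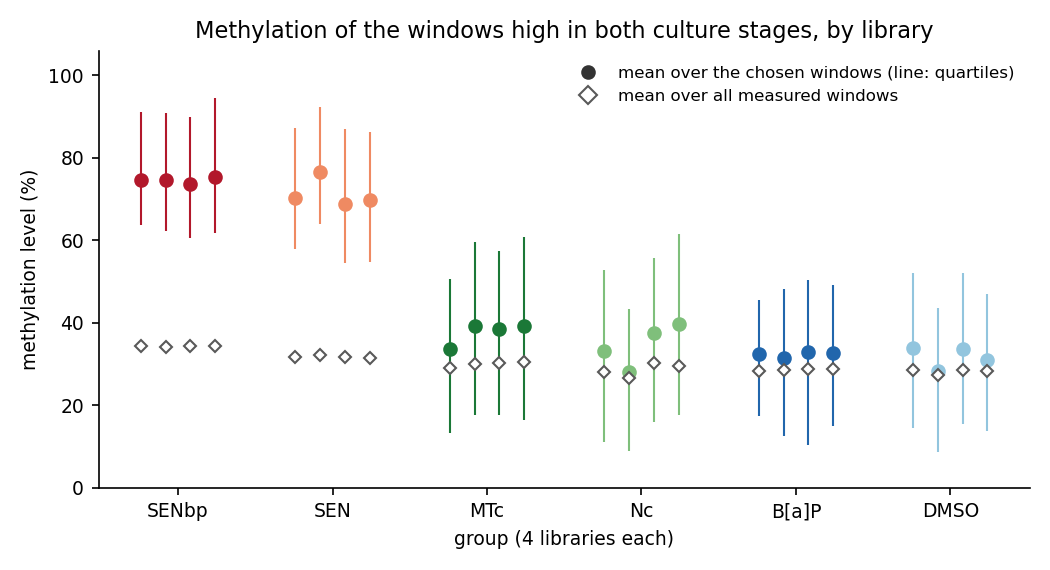
Mean methylation level (%) of each library over the 269 chosen windows (filled circles, with lines from the lower to the upper quartile of the windows) and over all 22842 measured windows (open diamonds), for the 4 libraries of each group. The 8 culture libraries lie between 68.9 and 76.7% and the 16 others between 28.2 and 39.7%, while over all windows the groups lie between 28.3 and 34.4%.

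In the culture the chosen windows were mostly highly methylated, and in the pools they were mostly partly methylated. The SENbp mean was 80% or more in 123 windows, 60 to 80% in 91, 40 to 60% in 38 and 20 to 40% in 17. In SEN these classes held 100, 103, 45 and 21 windows. In B[a]P the mean was 60 to 80% in 19 windows, 40 to 60% in 73, 20 to 40% in 105 and under 20% in 72, and in DMSO these classes held 16, 74, 98 and 81 windows. Thus no chosen window reached 80% in either pool group, a limit that a 20-point margin below 100% itself imposes.

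Windows of intermediate methylation made up most of the chosen ones. In 223 of the 269 (82.9%) the pools averaged 10 to 60%, a range that held 3758 of all measured windows (16.5%), and 5.93% of those 3758 were chosen. Another 32 chosen windows had pools below 10%, out of 12894 such windows, and 14 had pools at 60 to 75%. Windows that were nearly unmethylated in the pools were thus the largest class of the genome sampled here but a small class of the chosen windows. In these 32 windows the median level was 39.8% in SENbp, 38.1% in SEN, 6.19% in MTc, 7.14% in Nc, 4.83% in B[a]P and 5.44% in DMSO. Their SENbp means ran from 28.2 to 80.0% and their SEN means from 26.5 to 77.3%, so no group mean was near full methylation, although single libraries of the window of largest margin were at 99.8 and 100%.

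The same margin taken in SENbp or SEN alone gave larger and unequal sets. SENbp lay at least 20 points above the highest of the 4 other groups in 1319 windows (5.77% of all measured) and SEN in 472 (2.07%). Both margins were met in 364 windows, which were 77.1% of the SEN set and 27.6% of the SENbp set. SEN and SENbp are set against the same 16 libraries, so these shares are not evidence of agreement between independent comparisons. Of the 364, 95 were left out because SEN and SENbp differed by 15 points or more, and in 90 of those SENbp was the higher. In the 108 windows that met the SEN margin alone, the SENbp margin was above 0 in 96, with a median of 13.0 points and a range of -22.4 to 19.9. Conversely, 955 windows met the SENbp margin alone. The mirrored rule asked for both means at least 20 points below the lowest of the 4 other groups. With SEN and SENbp again less than 15 points apart, it gave 19 windows. Over positions shared by all 24 libraries, the rule gave 21 of 2266 windows and the mirrored rule 7.

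**Figure D2:**
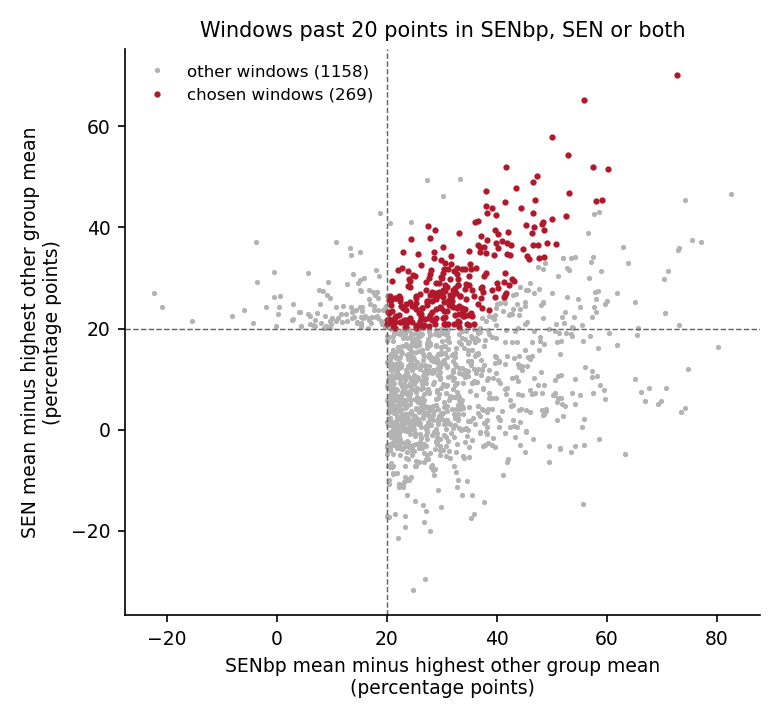
Each point is a measured window in which SENbp, SEN or both lay at least 20 percentage points (dashed lines) above the highest of the MTc, Nc, B[a]P and DMSO means, with the SENbp difference on the horizontal axis and the SEN difference on the vertical axis, both in percentage points. The 269 chosen windows (red) fill the band along the diagonal of the upper right corner, the 955 windows past the SENbp threshold alone lie below it, and the 108 past the SEN threshold alone lie to its left.

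The 10 windows named next have the largest margins among those in which all 8 culture libraries lay above all 16 others. The largest margin, 70.2 points, was at scaffold KB708167.1, bases 15035001 to 15036000, where SENbp libraries were at 69.6, 89.9, 60.6 and 99.8% and SEN libraries at 92.8, 100, 27.2 and 89.3%. The MTc libraries were at 1.76, 0, 2.92 and 0%, the Nc libraries at 0, 0, 7.61 and 1.43%, the B[a]P libraries at 0, 0, 0 and 2.198% and the DMSO libraries at 0, 2.27, 26.4 and 0%. All but 1 of the 16 other libraries were thus below 8%, and DMSO replicate 3 at 26.4% stood just under the lowest culture library, SEN replicate 3 at 27.2%. The libraries listed 4 to 39 positions and 66 to 2131 reads there, so they did not read the same CpGs. Over the positions listed by at least 1 library of every group, each weighted equally, the margin was 32.03 points, since SEN was then at 44.5%.

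More even was scaffold KB708162.1, bases 11984001 to 11985000, with SENbp libraries at 93.8, 79.8, 85.2 and 80.99% and SEN libraries at 84.02, 89.7, 88.4 and 83.4%. There the MTc libraries were at 0, 33.1, 33.97 and 43.5%, the Nc libraries at 4.88, 4.91, 7.39 and 16.5%, the B[a]P libraries at 34.8, 19.96, 28.6 and 45.1% and the DMSO libraries at 13.2, 39.1, 11.7 and 6.02%. The culture libraries kept within 15 points of each other, while both the MT colonies and the DMSO pools were spread over more than 30 points. Its margin of 52.8 points was 52.2 over the positions listed in every group.

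At scaffold KB708133.1, bases 287001 to 288000, SENbp averaged 92.6 ± 3.67% and SEN 87.2 ± 14.2% (SD, n = 4 each). The MTc libraries were at 15.6, 57.8, 2.198 and 65.02%, so that 2 of the 4 MT colonies were near the lowest culture library, SEN replicate 4 at 66.9%. The Nc libraries, at 11.5, 9.88, 14.9 and 9.12%, and the pools, at 11.8, 18.2, 15.8 and 21.8% in B[a]P and 3.81, 4.01, 12.05 and 13.01% in DMSO, were all low. A similar spread among single colonies appeared at scaffold KB708184.1, bases 8678001 to 8679000, where SENbp averaged 88.4 ± 0.918% and SEN 91.3 ± 0.720%. The MTc libraries there were at 72.4, 0.743, 8.68 and 42.3% and the Nc libraries at 0, 45.01, 87.2 and 32.1%, which ranged from unmethylated to just under the culture's own level. The B[a]P pools were at 33.9, 8.55, 23.8 and 24.5% and the DMSO pools at 18.5, 0.367, 44.9 and 57.99%.

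The window at scaffold KB708249.1, bases 1253001 to 1254000 was low in every single colony and pool. Its SENbp libraries were at 68.3, 65.1, 73.6 and 57.4% and its SEN libraries at 82.2, 69.4, 64.5 and 79.3%, against 15.6, 20.9, 14.4 and 7.23% in MTc, 2.84, 0.0589, 11.5 and 8.12% in Nc, 0, 11.2, 7.36 and 1.32% in B[a]P and 24.5, 17.4, 14.3 and 7.95% in DMSO. Here the highest colony or pool was 24.5% and the lowest culture library 57.4%. The other 5 windows of this group were scaffold KB708200.1, bases 162001 to 163000, KB708184.1, bases 8745001 to 8746000, KB708243.1, bases 331001 to 332000, KB708147.1, bases 2713001 to 2714000, and KB708130.1, bases 34378001 to 34379000, with margins of 55.8, 51.5, 46.8, 45.4 and 45.4 points. Of these, the KB708243.1 window did not keep its margin over the positions listed in every group. Over the 5 such positions, SENbp was at 100% and SEN at 72.8%, but B[a]P at 84.00%, so that the margin was -11.2 points. None of the 5 was listed in all 24 libraries. Whether the CpGs, the libraries that listed them or the equal weighting made the difference was not tested.

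**Figure D3:**
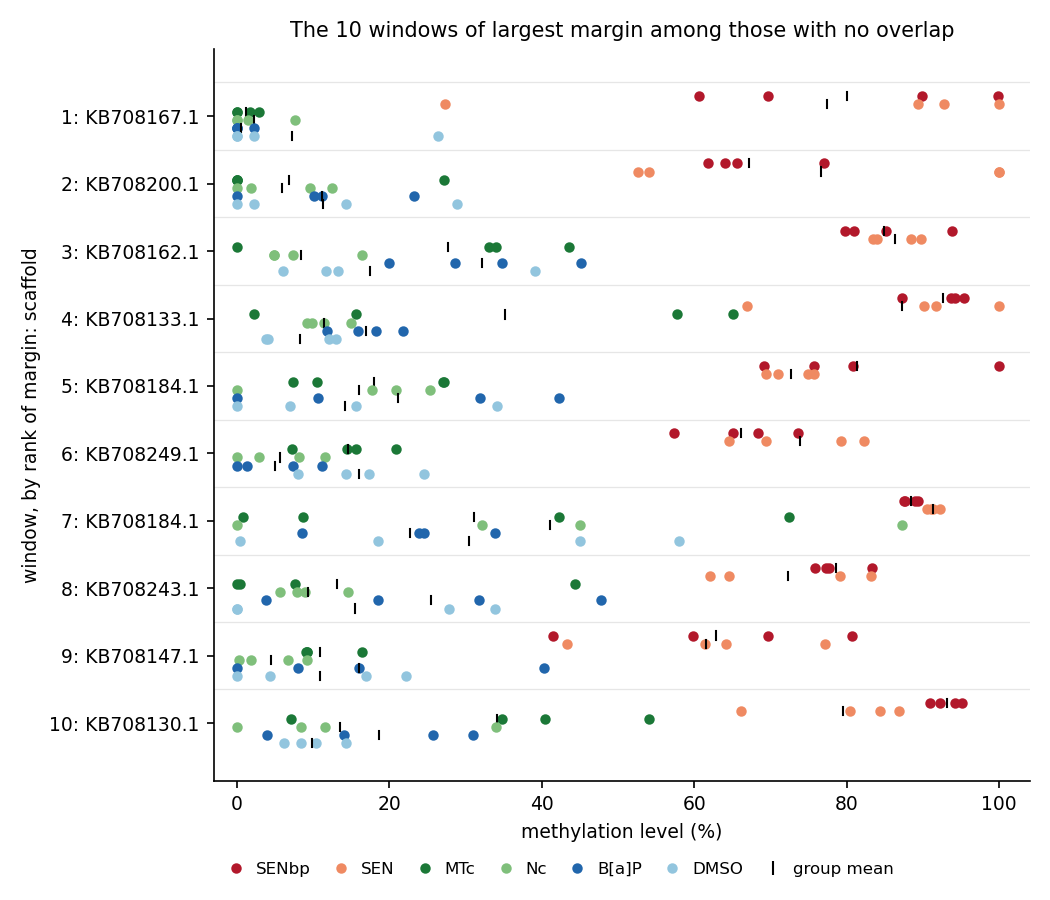
Methylation level (%) of each library (points, coloured by group) and each group's mean (black ticks) in the 10 windows of largest margin among those in which no colony or pool library reached the lowest culture library, numbered by rank and named by scaffold. The culture libraries lie mostly above 60% with the exception of single libraries such as SEN replicate 3 in window 1 at 27.2%, and single MT or N colonies approach them in windows 4 and 7.

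The 5 windows with the most CpG positions in their thinnest library are named next. The first, scaffold KB708128.1, bases 57001 to 58000, was read at 47 to 72 positions per library and 92979 to 218970 reads. Its SENbp libraries were at 66.8, 66.7, 67.7 and 68.3% and its SEN libraries at 62.01, 63.7, 62.5 and 62.9%, against 35.1, 49.4, 46.1 and 37.4% in MTc, 50.8, 39.5, 35.5 and 32.7% in Nc, 39.5, 42.1, 41.5 and 40.02% in B[a]P and 40.5, 41.5, 43.98 and 40.5% in DMSO. No library overlapped between the culture and the rest, and the pools and culture libraries each varied far less than the single colonies, whose SD was 6.85 in MTc and 7.96 in Nc. The window after it, bases 58001 to 59000, also had both culture groups above the rest, with 81.3 ± 0.888% in SENbp, 74.9 ± 0.940% in SEN, 53.1 ± 6.39% in MTc, 48.01 ± 8.64% in Nc, 50.8 ± 1.37% in B[a]P and 48.5 ± 3.94% in DMSO (SD, n = 4 each). These were the only chosen windows above 1000 reads per position, with 2390 and 3198 against a median of 33.0 over all measured windows, and whether reads from other copies of the sequence were placed there was not tested.

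At ordinary depth, scaffold KB708322.1, bases 1541001 to 1542000 was read at 24 to 83 positions. SENbp averaged 89.4 ± 1.37% and SEN 90.1 ± 2.67%, against 62.8 ± 8.58% in Nc, 59.4 ± 5.15% in B[a]P and 61.7 ± 6.48% in DMSO (SD, n = 4 each). The MTc libraries divided there, at 39.2, 89.8, 34.04 and 90.1%, with 2 MT colonies level with the culture and 2 below every pool. On scaffold KB708274.1, bases 1858001 to 1859000 averaged 78.5 ± 10.4% in SENbp and 76.5 ± 4.72% in SEN, while the 16 other libraries lay between 34.2 and 55.8%. Bases 1331001 to 1332000 of the same scaffold averaged 73.9 ± 6.85% and 73.2 ± 7.15%, with all 16 others at or below 54.5%. In both, the lowest culture library, at 66.8% and 63.7%, was above the highest of the others. The fifth, scaffold KB708147.1, bases 4500001 to 4501000, averaged 72.8 ± 12.5% in SENbp, 66.00 ± 12.8% in SEN, 39.6 ± 18.1% in MTc, 37.9 ± 18.8% in Nc, 17.7 ± 8.27% in B[a]P and 19.6 ± 12.2% in DMSO. There the colonies stood between the pools and the culture, and Nc replicate 4 at 58.9% overlapped with the lowest culture library at 52.1%.

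All 8 culture libraries lay above all 16 others in 82 of the 269 windows (30.5%), a pattern found in 0.81% of all measured windows. The rule had asked for both culture means well above the other group means, so a higher share than in all windows was set by the choice. The 0.81% was also not matched for the level in the pools. In the other 187 windows at least 1 colony or pool overlapped with the culture. A single colony lay at least 20 points above the mean of the 8 pools in 191 chosen windows (71.0%), against 19.0% of all measured windows and 64.4% of the 3535 other windows with pools at 10 to 60%. The share in the chosen windows was thus close to that of windows of similar level, and the chosen windows had been required to stay low in the colonies' mean, not in each colony. In 101 of the 191 windows such colonies were found in both MTc and Nc, in 46 only in MTc and in 44 only in Nc. The number of windows per colony was 42, 69, 58 and 65 in MTc and 39, 20, 67 and 72 in Nc, so the ranges of the 2 morphologies overlapped. These were 15.6, 25.7, 21.6 and 24.2% of the chosen windows in MTc and 14.5, 7.43, 24.9 and 26.8% in Nc. In the other windows with pools at 10 to 60% the shares were 15.4, 22.3, 18.4 and 24.3% in MTc and 11.1, 8.49, 21.8 and 17.6% in Nc, so most colonies were near that background. At most 5 of the 8 colonies were that high in the same window, which happened in 12 windows. In 71 windows at least 1 colony reached the lower of the SENbp and SEN means, and in 33 at least 1 pool did. No background share is given for these 2 counts or for the split by morphology. Single pools also lay at least 20 points above the mean of the 8 pools, in 15, 16, 38 and 24 chosen windows for B[a]P and in 28, 25, 29 and 15 for DMSO, which overlaps with the range of the colonies. These were 5.58, 5.95, 14.1 and 8.92% for B[a]P and 10.4, 9.29, 10.8 and 5.58% for DMSO. The other windows with pools at 10 to 60% had similar shares, at 5.40, 8.40, 13.2 and 7.75% and at 9.96, 9.99, 9.34 and 5.86%.

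Some single colonies were fully methylated in a chosen window. At scaffold KB708148.1, bases 4272001 to 4273000, where SENbp averaged 95.6 ± 4.91% and SEN 94.2 ± 3.88% (SD, n = 4 each), the MTc libraries were at 4.13, 90.02, 66.4 and 71.4% and the Nc libraries at 100, 42.9, 28.8 and 15.8%. The colonies there covered nearly the whole scale, and the pools lay between 27.0 and 71.6%. At scaffold KB708196.1, bases 1974001 to 1975000 the MTc libraries were at 3.496, 100, 15.5 and 16.8%, with replicate 2 fully methylated and the other 3 below 17%, against 80.5, 94.6, 100 and 99.8% in SENbp and 86.03, 100, 91.7 and 48.6% in SEN. The Nc libraries were at 65.8, 0, 41.3 and 55.0%, the B[a]P pools at 44.0, 0, 84.8 and 27.7% and the DMSO pools at 46.3, 0, 77.8 and 54.2%. The pools were thus spread widely too, and the libraries listed only 3 to 14 positions and 81 to 983 reads there. At scaffold KB708245.1, bases 7154001 to 7155000, MTc replicate 4 was at 100% and so was B[a]P replicate 3, while the other MTc libraries were at 37.0, 12.4 and 11.98%. A pool of about 60 colonies at 100% in this window, read at 8 to 49 positions per library, is itself a value far from the other B[a]P pools, at 37.4, 11.2 and 15.1%. MTc replicate 4 was also fully methylated at scaffold KB708274.1, bases 932001 to 933000, and Nc replicate 4 at scaffold KB708228.1, bases 6759001 to 6760000.

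Libraries of a window often read different CpGs, so the levels were also taken over the positions listed in every group. A position counted when at least 1 library of each group listed it, so the libraries of a group could still differ in their CpGs. In 231 of the 269 windows no position was listed in all 24 libraries. These levels weighted each position equally, whereas the rule weighted positions by their reads, so the 2 margins differ in measure too. Over these, the median margin was 21.8 points, against 26.4 by the rule. It was above 0 in 264 windows, at least 10 in 234 and at least 20 in 156 (58.0%). The 5 windows at or below 0 were on APMT01214832.1 from base 3001, KB708147.1 from 1628001, KB708161.1 from 14173001, KB708174.1 from 3706001 and KB708243.1 from 331001. Of the 4758 positions compared, 74.6% were above the mean of the 4 other groups in both SEN and SENbp. A stricter reading used the 24 chosen windows with at least 3 positions shared by all 24 libraries. Over those shared positions the median level was 85.9% in SENbp, 85.4% in SEN, 42.1% in MTc, 41.3% in Nc, 38.5% in B[a]P and 39.6% in DMSO, with a margin above 0 in all 24 windows and of at least 20 in 17. All positions compared here also entered the levels that chose the windows, so margins above 0 are partly set by the choice. The chosen windows became fewer, and a smaller share of those measured, as more positions were asked for, with 125 of 13840 windows (0.903%) at 5 positions and 33 of 6213 (0.531%) at 10. The same 2 limits left 4 and 2 windows by the mirrored rule.

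The strands, which are read from separate molecules, were compared in the 238 chosen windows with at least 3 positions on each. The margin was above 0 on both strands in 193 of them and at least 10 on both in 137. Reads of both strands entered the levels that chose these windows, so these counts are a description and not an independent check. Its median was 20.6 points on the forward and 19.1 on the reverse strand.

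At single positions the chosen windows divided mainly between high and low methylation, with more high positions in the culture than in the other groups. Of their listed positions, 62.3% were above 80% methylated in SENbp and 55.9% in SEN, against 25.0% in MTc, 22.5% in Nc, 19.2% in B[a]P and 20.1% in DMSO. Positions under 20% made up 21.7% in SENbp, 24.4% in SEN, 55.1% in MTc, 59.2% in Nc, 57.6% in B[a]P and 60.1% in DMSO. Those between 20 and 80% made up 16.0% in SENbp, 19.7% in SEN, 19.9% in MTc, 18.2% in Nc, 23.1% in B[a]P and 19.9% in DMSO. Intermediate positions were thus the smallest class in SENbp, SEN, MTc, Nc and DMSO, and in B[a]P the high positions were. In the other windows with pools at 10 to 60%, positions above 80% made up 37.3% in SENbp, 29.3% in SEN, 25.5% in MTc, 21.9% in Nc, 20.2% in B[a]P and 20.4% in DMSO.

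Few chosen windows touched each other, and 4 runs of adjacent chosen windows were found. The longest was 3 windows on scaffold KB708143.1, bases 17378001 to 17381000. Its first window averaged 96.01 ± 2.59% in SENbp, 87.00 ± 5.60% in SEN, 54.5 ± 13.4% in MTc, 58.9 ± 20.1% in Nc, 53.7 ± 19.5% in B[a]P and 44.9 ± 16.7% in DMSO (SD, n = 4 each). In the second, SENbp libraries were at 85.6, 77.5, 86.1 and 94.4% and SEN libraries at 71.3, 71.05, 75.3 and 86.1%, against 32.3, 29.6, 30.8 and 41.1% in MTc, 24.6, 48.5, 61.9 and 22.4% in Nc, 34.6, 20.6, 20.2 and 16.99% in B[a]P and 29.5, 27.2, 6.17 and 15.5% in DMSO. Both pool groups were low in it, all 4 MT colonies lay between 29.6 and 41.1%, and Nc replicate 3 was the highest of the 16 at 61.9%. The third averaged 89.3 ± 5.27% in SENbp, 76.5 ± 10.95% in SEN, 27.9 ± 16.1% in MTc, 30.8 ± 19.9% in Nc, 31.4 ± 10.7% in B[a]P and 26.6 ± 10.6% in DMSO. Of the 88 positions in the run that were listed in every group, 57 had both culture means above all 4 others and 32 had them at least 20 points above. A group's mean at a position used only the libraries that listed it, at many positions 1 library, so these counts do not rest on 4 libraries per group. The next measured window, bases 17384001 to 17385000, was at most 1.64% in any group.

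**Figure D4:**
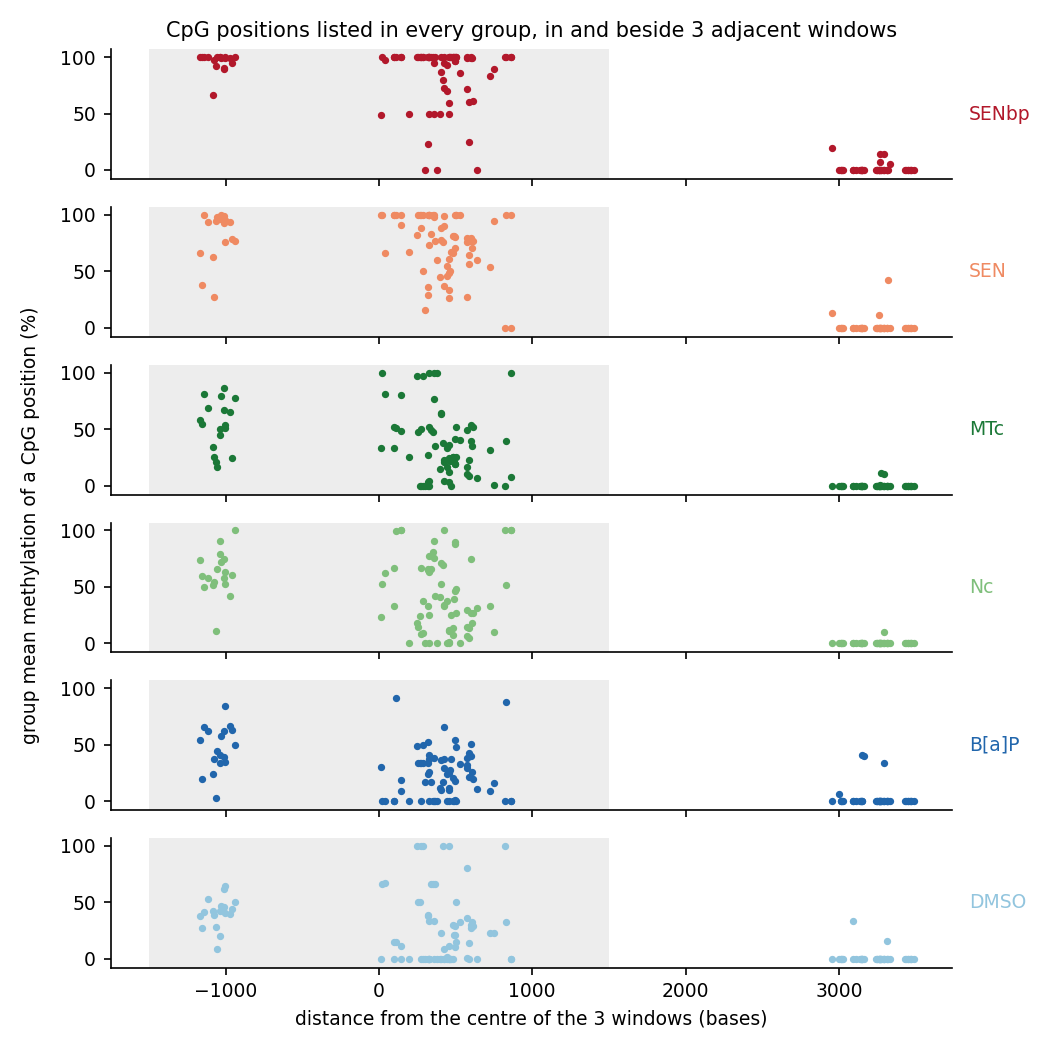
Group mean methylation (%) of each CpG position listed in every group, against its distance in bases from the centre of the 3 adjacent chosen windows on KB708143.1 (grey band), with a panel for each group. Inside the band most SENbp and SEN positions are high, with medians of 100% and 81.0%, while those of the other groups are spread, and most positions beyond the band are at or near 0 in every group. Each mean uses only the libraries that listed the position, at many positions 1 library, so the medians are not values of 4 libraries at each position.

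On scaffold KB708167.1 the window of largest margin formed a run with the window before it, bases 15034001 to 15035000. That window averaged 40.3 ± 23.0% in SENbp, 41.4 ± 11.8% in SEN, 16.1 ± 4.59% in MTc, 3.48 ± 4.32% in Nc, 8.90 ± 8.41% in B[a]P and 5.28 ± 4.51% in DMSO (SD, n = 4 each). SENbp replicate 3, at 9.09%, was below 7 of the 16 other libraries there. The window after the run, from base 15036001, was between 0.752 and 2.49% in every group, so the methylated stretch ended within 1 kb. The remaining runs were the deeply read pair on KB708128.1 and bases 67001 to 69000 of KB708341.1. On KB708341.1 the first window averaged 48.3 ± 17.0% in SENbp, 45.6 ± 17.4% in SEN, 19.5 ± 2.73% in MTc, 20.1 ± 15.2% in Nc, 10.7 ± 2.71% in B[a]P and 13.9 ± 5.61% in DMSO. Its second window averaged 62.9 ± 16.9% in SENbp, 61.3 ± 4.74% in SEN, 31.5 ± 8.57% in MTc, 19.2 ± 13.2% in Nc, 28.4 ± 2.12% in B[a]P and 30.9 ± 7.04% in DMSO.

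Averaged together, the measured windows next to the chosen ones showed part of the same pattern. Of the 95 measured windows that bordered a chosen one, 9 were chosen themselves (9.47%, against 1.18% of all measured windows). The 86 others averaged 38.7 ± 0.913% in SENbp, 28.4 ± 1.52% in SEN, 21.1 ± 1.68% in MTc, 19.2 ± 3.66% in Nc, 18.7 ± 0.782% in B[a]P and 17.9 ± 1.28% in DMSO (SD over libraries, n = 4 each). The SENbp mean of these bordering windows was about 10 points above the SEN mean, whereas in the chosen windows the rule kept these means close. A margin of at least 10 points was met by 19 of the 86 (22.1%), against 3.69% of all windows not chosen. Neither this background nor the 1.18% was matched for the level in the pools. Of measured windows with pools at 10 to 60%, 5.93% were chosen, against 0.119% of those with pools under 5%. At 2 kb it was met by 4 of 47 windows (8.51%), at 3 kb by 2 of 42, at 4 kb by 4 of 30 (13.3%) and at 5 kb by 2 of 28. The SENbp mean stayed above the DMSO mean at every distance, by 20.9, 9.78, 10.7, 17.5 and 10.6 points at 1 to 5 kb, against 5.67 in all windows not chosen. For SEN the difference was smaller, at 10.5, 4.61, 5.11, 7.10 and 5.78 points, against 3.06. The median margin was 0.683 points at 1 kb and -0.511, -0.820, -0.542 and -1.43 at 2 to 5 kb, against -1.02 in all windows not chosen. The typical window at 2 to 5 kb thus had no margin above 0.

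**Figure D5:**
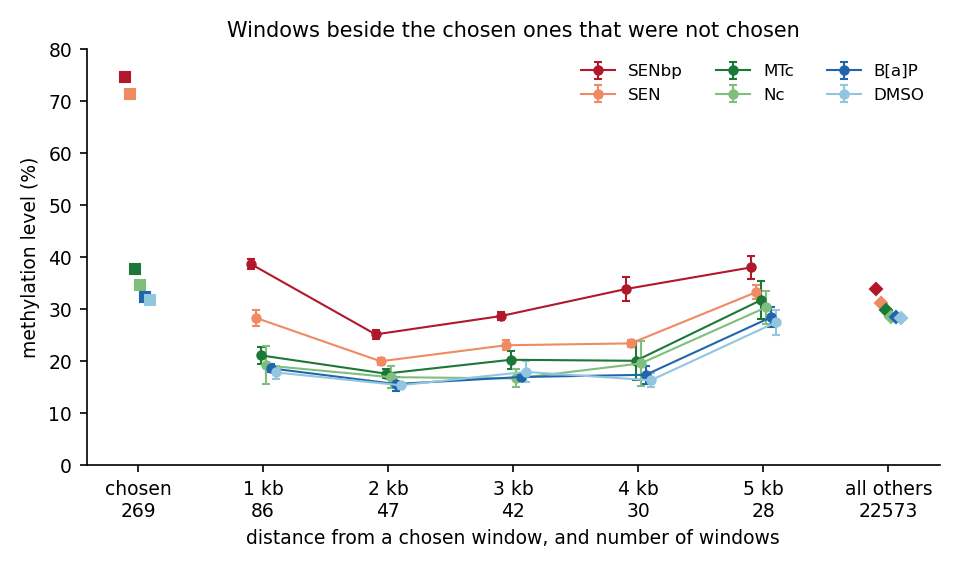
Mean methylation level (%) of each group in the 269 chosen windows (squares), in measured windows that were not chosen at 1 to 5 kb from a chosen one (circles, with SD over the 4 libraries), and in all 22573 windows not chosen (diamonds), with the number of windows under each distance. At 1 kb SENbp (38.7%) and SEN (28.4%) lie above the other groups (17.9 to 21.1%), and SENbp is 20.9 points above DMSO at 1 kb, 9.78 at 2 kb and 17.5 at 4 kb, against 5.67 in all windows not chosen. SEN is 10.5, 4.61 and 7.10 points above DMSO at these distances, against 3.06.

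The chosen windows were spread over the genome. They lay on 125 of the 977 scaffolds with a measured window, and 65 scaffolds held a single one. The 10 scaffolds with 5 or more held 71 of them, led by KB708147.1 with 13 of 666 measured windows, KB708169.1 with 10 of 253, KB708274.1 with 9 of 367 and KB708344.1 with 7 of 215. Between chosen windows that followed each other on a scaffold the median distance was 777.5 kb. On the 10 scaffolds whose read share in SENbp was lower than in SEN by more than 0.5 on the log2 scale, 4 of 765 windows were chosen (0.523%), against 1.20% elsewhere. In read depth the chosen windows were ordinary, with a median of 37.0 reads per position against 33.0 over all measured windows. The median log2 ratio of read share was -0.02 for SENbp over SEN and -0.11 for the culture over the 16 other libraries, against 0.03 and -0.06 over all measured windows. They held fewer CpG positions, with a median of 13.1 per library against 18.1 over all measured windows and 11.6 in windows with pools at 10 to 60%.

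The comparisons within the remaining groups were not used to choose the windows, although the rule set a ceiling on those groups' means. Each was tested over all testable windows with a quasi-binomial model of methylated and unmethylated reads, and a call required both an adjusted p below 0.05 and a difference of at least 10 points between the means. For B[a]P pools against DMSO pools, 0 of the 256 chosen windows that could be tested were called, and 0 of all 18421 tested (0%). At an unadjusted p below 0.05 there were 11 of the 256 chosen windows (4.30%), against 6.36% of all tested. By edgeR there were 3 (1.17%), against 2.21% of all tested. The median difference was 0.65 points in the chosen windows and 0.62 in all tested. For MTc against Nc, 0 of 256 were called and 0 of all 26825 (0%), with 13 (5.08%) at an unadjusted p below 0.05 against 8.12% of all tested. By edgeR there were 3 (1.17%), against 2.91% of all tested. Its median difference was 2.24 points in the chosen windows and 2.39 in all tested. In neither comparison did the chosen windows reach a low p more often than all tested windows. The tests do not show that the groups were alike. B[a]P was the higher in 5 of the 11 chosen windows at a low p, and MTc in 12 of the 13. At any p, MTc was higher in 60.9% of the chosen windows and 59.9% of all tested. The median dispersion, the spread of libraries relative to counting noise, was 36.8 in the chosen windows against 28.0 in all tested for the pools. For the colonies it was 73.7 against 39.1, and a higher dispersion makes a low p harder to reach. The windows tested were not matched for level. The median SD over the libraries of a chosen window was 15.1 points in MTc, 15.9 in Nc, 12.8 in B[a]P and 12.9 in DMSO. Over all measured windows with pools at 10 to 60% it was 13.8, 14.1, 12.2 and 13.5 points, so the spread differed little at a similar level.

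Colonies were also set against the B[a]P pools, which had the same treatment but an earlier harvest. For MTc against B[a]P, 0 of 254 chosen windows were called, and 2 of all 27097 tested (0.00738%). At an unadjusted p below 0.05 there were 24 chosen windows (9.45%), against 9.96% of all tested, and by edgeR 11 (4.33%), against 4.26%. In 21 of the 24 MTc was the higher. The median difference was 4.98 points in the chosen windows and 2.05 in all tested. For Nc against B[a]P, 0 of 256 were called and 0 of all 21991 (0%), with 21 (8.20%) at an unadjusted p below 0.05, against 7.64% of all tested. By edgeR there were 7 (2.73%), against 2.96%. Its median difference was 1.94 points in the chosen windows and -0.07 in all tested. The share of chosen windows at a low p was thus near the background in both comparisons, and neither difference between colonies and pools passed the adjustment in a chosen window.

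For SENbp against SEN the rule itself limited the difference to under 15 points, so its values are given as a description. SENbp was higher in 187 of the 269 chosen windows, and in 69.96% of those tested, against 63.5% of all tested windows. The median difference was 2.95 points in the 253 chosen windows tested and 3.44 in all 24638 tested. Of all tested windows 891 were called (3.62%), 816 of them higher in SENbp, and 2 of these were chosen windows. They were scaffold KB708130.1, bases 34378001 to 34379000, where SENbp libraries were at 90.9, 92.2, 95.1 and 94.2% and SEN libraries at 80.4, 84.4, 66.1 and 86.9%, and scaffold KB708170.1, bases 7958001 to 7959000, where SENbp libraries were at 91.4, 91.98, 91.2 and 90.5% and SEN libraries at 78.8, 73.7, 84.2 and 81.2%. In both, every bypass library was above every senescent one. As the 8 libraries are technical replicates, this spread does not include variation between cultures, and edgeR's quasi-likelihood test called neither window and 0 of all tested. The number of called chosen windows was 1 without SENbp replicate 3 or without SEN replicate 1, 2 or 4, and 0 without SENbp replicate 4 or SEN replicate 3. Over all windows the number called was 478, 542 and 592 without SENbp replicates 2, 3 and 4, and 543, 426 and 443 without SEN replicates 1, 3 and 4.

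Since the rule averages 4 libraries, each culture library was also read in windows chosen without it. The rule applied to the other 23 libraries gave 255 to 296 windows. In these, the left-out SENbp library lay at least 20 points above the highest other group mean in 78.5 to 81.9%, with a median of 31.5 to 33.2 points. A left-out SEN library did so in 59.8 to 71.1%, with a median of 23.3 to 29.4 points. Over all measured windows the same difference was met in 2.75 to 8.37%. The left-out libraries were above 0 in 92.7 to 97.6% of the windows. They are technical replicates of the libraries that chose the windows, and the colonies and pools they were set against were not left out.

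Close to the threshold the choice turned on small differences. The smallest margins were 20.1 points, at scaffold APMT01209100.1, bases 6001 to 7000, at KB708174.1, bases 3706001 to 3707000, and at KB708209.1, bases 2913001 to 2914000. At the first of these the SENbp libraries were at 87.7, 85.9, 100 and 100% and the SEN libraries at 96.1, 92.7, 94.4 and 93.6%, while the DMSO libraries were at 71.1, 44.2, 100 and 78.00% and the MTc libraries at 66.9, 4.79, 96.5 and 0%. The DMSO group alone set its margin, and MTc covered nearly the whole scale there. Just outside lay KB708148.1, bases 14183001 to 14184000, KB708304.1, bases 879001 to 880000, and KB708319.1, bases 1154001 to 1155000. At KB708304.1, read at the same number of positions in every library, SENbp averaged 30.1 ± 5.78% and SEN 36.5 ± 10.7%, against 4.27 ± 4.21% in MTc, 10.1 ± 3.78% in Nc, 5.45 ± 1.76% in B[a]P and 4.42 ± 1.66% in DMSO (SD, n = 4 each).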

How the data were processed

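The 24 libraries fell into 6 groups by the labels, with 4 in each. The submitters' processing notes name Bismark 0.22.1 with Bowtie2, methylKit 1.10.0 under R 3.6.1, Trim Galore 0.5.0 and bcl2fastq, without their roles. For the genome build, the sources used here name none. In the authors' deposited tables, per the file headers, every CpG position has a strand, a coverage as a read count, and the percent of reads with C (methylated) or T. No deposited position had under 10 reads. Coverage times the C percent gave the methylated reads, and at coverage up to 1000 these products lay within 0.06 of a whole number in 100% of cases. A read over several positions is counted once at each, and whether PCR copies were removed was not tested, so counts exceed independent molecules.

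Window levels were computed with Python 3.11.15 from all deposited positions. For the tests, positions in the top 0.1% of their library's coverage were left out, and windows were kept with 3 or more positions in every one of the 8 libraries and a pooled methylation of 5 to 95%. A quasi-binomial logistic model was fitted in R 4.3.3, with dispersions squeezed by limma 3.58.1 within 10 classes of pooled methylation and Benjamini-Hochberg adjustment over all windows of a comparison. It was tested on simulated data. The edgeR 4.0.16 quasi-likelihood test was an alternative, beside other minimum positions, weights, window positions and sizes, margins, a replicate block and the leaving out of each library. Comparisons that share B[a]P libraries are not independent.

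The chosen windows and the tests were set with earlier results of these data known. Windows were named by a rule, which took the 10 largest margins among windows with no overlap, the 5 with most positions, the 5 with the highest single colony, the 3 longest runs, the 3 smallest margins, the 3 just outside and those called in a test. The windows of the fourth run, the scaffolds with most windows, and the windows at or below 0 over positions listed in every group were named after their values were seen. Gene lists were not used here, because no annotation of the files' build was used.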

Additional observations from a re-analysis of the deposited data

Results flagged for a closer look

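Within groups of 4 libraries, 11 of the 198 groups examined (5.56%) held a library set apart by Dixon's criterion, that is, by a gap to the nearest other library that made up most of the group's range. The criterion flags about 1 in 20 groups of 4 independent, normally distributed values. Methylation levels are bounded and sometimes tied at 0, and many of the windows were named for extreme values. The 1 in 20 is therefore no background for the 5.56%. Over all 269 windows, MTc replicate 1 averaged 33.7%, against 38.5 to 39.3% in the other MTc libraries. In the window of largest margin, KB708167.1 from base 15035001, SEN replicate 3 was at 27.2% against 89.3 to 100% in the other SEN libraries, B[a]P replicate 4 at 2.198% against 0 in the other pools of its group, and DMSO replicate 3 at 26.4% against 0 to 2.27%. At KB708200.1 from base 162001, MTc replicate 3 was at 27.1% against 0 in the other 3, and at KB708147.1 from base 2713001, MTc replicate 2 was at 16.3% against 8.99 to 9.21%.

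At KB708274.1 from base 1331001, SENbp replicate 1 was at 63.7% against 76.4 to 78.6% in the other SENbp libraries. At KB708196.1 from base 1974001, MTc replicate 2 was at 100% against 3.496 to 16.8%. The deeply read window at KB708128.1 from base 58001 had SENbp replicate 4 at 82.6% against 80.7 to 80.9%, a gap of under 2 points. SEN replicate 2 was at 100% at KB708209.1 from base 2913001, against 91.5 to 92.8%. Outside the chosen windows, B[a]P replicate 4 was at 83.9% at KB708319.1 from base 1154001, against 57.9 to 60.3%. No cause was tested for any of these.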

How the results depend on the processing

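Of 272 alternative values, 209 kept the count within 1.5 times or the median level within the spread between replicates, and 63 did not. Many of the 209 were counts of 0 that stayed 0. These included every alternative for chosen windows called in comparisons other than SENbp against SEN. The 209 are therefore no measure of how stable the results were. The number of chosen windows moved from 269 to 125 and 33 with at least 5 and 10 positions, to 21 over positions listed in all 24 libraries (16 of them among the 269), to 453 and 80 with margins of 15 and 30 points, and to 82 where all 8 culture libraries had to lie above the rest. Under 9 other settings it was 216 to 364, and 247 to 296 without 1 library. Of the 240 windows chosen over positions listed in every group, an alternative added after seeing the data, 143 were among the 269. The median SENbp level of 78.2% moved to 74.2 and 72.5% with 5 and 10 positions, 76.0% unweighted, 86.2% over positions in all 24 libraries, 80.0% in windows of 500 bases, 75.7% with the 15-point margin, 76.4% with group medians and 76.5% without overlap, and was 76.5 to 78.6% without 1 library. The median SEN level of 74.7% moved to 66.7% with 10 positions, 85.9% over positions in all 24 libraries, 67.6% with no limit on the difference of SEN and SENbp and 70.0% over positions listed in every group, and was 73.0 to 75.5% without 1 library. The 191 windows with a high colony became 126 with 30 points and 56 against the highest of the 8 pools. In bordering windows with at least 5 positions, SENbp was 20.2 and SEN 9.86 points above DMSO, against 20.9 and 10.5 with 3.

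Among chosen windows, no setting called any in the 4 comparisons other than SENbp against SEN, where 2 became 0 without squeezing or by edgeR, 1 with no limit on pooled methylation, and 0 to 2 without 1 library. Over all windows, the 891 called for SENbp against SEN became 170 without squeezing, 0 by edgeR and 426 to 734 without 1 library. The 2 called for MTc against B[a]P became 0 without squeezing, by edgeR or with no limit on coverage or on pooled methylation, 4 with at least 5 positions, and 0 to 10 without 1 library. For Nc against B[a]P there was 1 without squeezing, 2 with at least 5 positions and 0 to 1 without 1 library. Without 1 library the pools and the colonies each had 0 to 1.

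Replicate numbers shared by groups did not pair the libraries, whose deviations correlated by -0.03 to 0.03. With a replicate block the called windows were 9 for B[a]P against DMSO, 23 for MTc against Nc, 513 for SENbp against SEN (0 of them chosen windows), 18 for MTc against B[a]P and 12 for Nc against B[a]P. The cause of these shifts was not tested. Depth limits single windows, since the chosen windows had a median of 4 positions in their thinnest library.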
